A study of Mus musculus with 2 samples.

Results

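Genes of the osteoclast program, 10 of the 19059 features of each matrix, were followed through single-nucleus RNA-seq of mouse CIC::DUX4 sarcomas. They are Atp6v0d2, Nyap2, St18, Slc9b2, Snx10, Gpr137b, Shtn1, Acp5, Ctsk and Ocstamp, and each symbol was found once. They were chosen by their lower level in the Minnelide group of these same tumors, so the difference between the groups in any class of nuclei is given as a description, with no test and no p-value. The tumors came from dFLEx CDS mice, in which Cre and FLPE expressed from a pCAG promoter after electroporation of hind limb muscle switch on the CIC::DUX4 fusion. The untreated group held 4 tumors of genotype dFLEx CDS +/- per the labels. The other 4 tumors came from dFLEx CDS mice given 0.42 mg/kg Minnelide, a water-soluble prodrug of the RNA polymerase II transcription inhibitor triptolide, for 21 days; the labels state no genotype for that group and no age for either.

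Osteoclasts are multinucleated cells that form when precursors of the monocyte and macrophage lineage meet the cytokines M-CSF (Csf1) and RANKL (Tnfsf11), which act through the receptors Csf1r and RANK (Tnfrsf11a). They fuse, seal off a patch of bone, acidify it with a vacuolar proton pump (V-ATPase) and digest its matrix with secreted proteases. Giant cells with these genes are also found in soft tissue tumors. The nuclei of such a cell are recovered one by one in a nuclear preparation, while its abundant cytoplasmic messenger RNA can be released and picked up by droplets that hold other nuclei. Such free RNA bears on every level below.

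The members fall into groups by role, and positions are those of GENCODE M39 on GRCm39, the assembly of the deposited counts. Atp6v0d2, the d2 subunit of the V-ATPase that osteoclasts use, lies on the minus strand at chr4:19876838-19922614. Slc9b2, a sodium and proton exchanger, lies at chr3:135013429-135051148, and Snx10, a sorting nexin needed for the ruffled border, at chr6:51485937-51570148, both on the plus strand. Ctsk encodes cathepsin K, the main collagen-degrading protease of bone resorption, on the plus strand at chr3:95406178-95416732. Acp5 encodes tartrate-resistant acid phosphatase, the classical histochemical marker of osteoclasts, on the minus strand at chr9:22038023-22049355. Ocstamp, a membrane protein required for cell fusion, lies on the minus strand at chr2:165235680-165242336. Gpr137b encodes a lysosomal membrane protein on the minus strand at chr13:13531198-13568599. The remaining genes are known mainly from other tissues: Nyap2, an adaptor of phosphoinositide 3-kinase in neurons (plus strand, chr1:81054447-81344971), St18, a zinc finger transcription factor (plus strand, chr1:6557455-6931164), and Shtn1, a cytoskeletal adaptor of growing axons (minus strand, chr19:58961786-59064532). None of the 10 overlapped another counted gene, but Atp6v0d2, Snx10, Shtn1 and Acp5 each overlapped a long noncoding RNA on the other strand that was not counted. The spans ran from 6.66 kb for Ocstamp to 374 kb for St18. The study's methods state that intronic reads were counted. The feature list, however, names neither Malat1 nor Neat1 and almost no noncoding genes, and whether the UMIs stand for whole transcripts, introns included, or for a set of probes could not be settled from the files.

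Promoter windows, 250 bases before to 50 bases after an annotated start, were held by the RefSeq table (build GRCm38.p6) for 5 of the 10 members in 9 windows: Acp5, Ctsk, Nyap2, Slc9b2 and Snx10. Of these, 3 are printed as examples. Ctsk, a protease gene, and Acp5, a phosphatase gene, were found in every class of nuclei. Nyap2 was the member most restricted to osteoclast-like nuclei. Capitals mark, on either strand, the core letters of 4 factor families that act in osteoclasts: CACATG for MITF, TGGAAA for NFAT, GAGGAA for PU.1 and TGANTCA for AP-1.
Ctsk, chr3:95498960-95499259, plus strand: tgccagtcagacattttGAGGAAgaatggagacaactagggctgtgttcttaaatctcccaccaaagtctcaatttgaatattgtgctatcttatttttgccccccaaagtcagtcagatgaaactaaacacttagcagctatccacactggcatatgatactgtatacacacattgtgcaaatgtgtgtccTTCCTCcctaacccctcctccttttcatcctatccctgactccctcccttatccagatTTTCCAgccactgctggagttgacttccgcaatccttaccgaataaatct
Acp5, chr9:22130549-22130848, minus strand: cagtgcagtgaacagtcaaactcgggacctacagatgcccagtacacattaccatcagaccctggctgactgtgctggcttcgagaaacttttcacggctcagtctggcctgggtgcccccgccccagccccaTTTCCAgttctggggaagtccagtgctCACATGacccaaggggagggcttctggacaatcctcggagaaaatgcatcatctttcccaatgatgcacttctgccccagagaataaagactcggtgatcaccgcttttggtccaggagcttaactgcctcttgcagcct
Nyap2, chr1:81076700-81076999, plus strand: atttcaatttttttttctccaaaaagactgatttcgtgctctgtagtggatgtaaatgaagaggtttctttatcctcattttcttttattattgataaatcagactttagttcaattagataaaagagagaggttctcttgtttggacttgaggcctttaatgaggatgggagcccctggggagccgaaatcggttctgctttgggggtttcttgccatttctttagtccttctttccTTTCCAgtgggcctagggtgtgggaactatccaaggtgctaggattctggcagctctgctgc

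The printed Acp5 window held 1 MITF core, whose first base lay at -90 with the start site counted as 0, and 1 NFAT core at -117, while the other 2 of the 3 Acp5 windows held none of the 4 cores. Ctsk held PU.1 cores at -233 and -58 and an NFAT core at 0, and Nyap2 an NFAT core at -12. Over the 5 members with a window, the NFAT core was found in 4, the PU.1 core in 2 and the MITF and AP-1 cores in 1 each. Over their 9 windows the NFAT core was found in 4, the PU.1 core in 3 and the MITF and AP-1 cores in 1 each. These letters are common: of all 32851 windows in the table, 21.4% held the NFAT core, 28.3% the PU.1 core, 14.2% the MITF core and 7.81% the AP-1 core. A match of letters is a description and does not show that a factor binds there.

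The 8 matrices held 18487409 to 73211599 UMIs, and 59907 nuclei were retained, 30789 untreated and 29118 Minnelide. The median nucleus held 883 UMIs in untreated tumor 4 and between 2329 and 4031 UMIs elsewhere. Tumor numbers are names only and pair nothing. Nuclei fell into 24 clusters, 1 of which, of 733 nuclei, raised 10 of 10 osteoclast naming markers (Calcr, Mmp9, Dcstamp, Nfatc1, Itgb3, Oscar, Tnfrsf11a, Car2, Siglec15 and Jdp2), none of them a member. The cluster is called osteoclast-like. Clusters took their names from these marker lists, so the raised markers are no separate test of the label. Members were left out of the clustering. Tumors of the 2 groups that carry the same multiplexing bases shared 49 to 132 barcodes, and the labels give each group 1 library name, so library and treatment cannot be told apart.

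Summed over all retained nuclei, every member had a lower mean CPM (UMIs of a gene scaled to a fixed total of UMIs per tumor or class) in the Minnelide group. The acid-handling genes came first. Atp6v0d2 stood at 29.0, 127, 113 and 80.0 CPM in untreated tumors 1 to 4 and at 16.6, 27.8, 19.8 and 54.1 CPM in Minnelide tumors 1 to 4. Slc9b2 stood at 12.1, 68.6, 74.0 and 33.4 CPM against 9.12, 13.03, 8.28 and 29.4 CPM. For both genes untreated tumors 2 and 3 were highest, and Minnelide tumor 4 lay above untreated tumor 1, so the groups overlapped. Snx10 was much more even, with 52.7, 60, 59.6 and 46.4 CPM in untreated tumors against 18.1, 43.4, 18.6 and 24.4 CPM in Minnelide tumors. Its groups did not overlap, although Minnelide tumor 2 came close to untreated tumor 4.

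The protease gene Ctsk measured 286, 867, 293 and 135 CPM in untreated tumors 1 to 4 and 119.5, 48.6, 133 and 226 CPM in Minnelide tumors 1 to 4. Acp5 measured 121, 338, 96.4 and 40.9 CPM in the untreated tumors and 38.5, 14.1, 54.7 and 77.9 CPM in the treated ones. Untreated tumor 2 led both genes by far, and Minnelide tumor 4 lay above untreated tumor 4 for both, as did Minnelide tumor 3 for Acp5. The cell fusion gene Ocstamp was sparse, at 5.79, 12.98, 11.1 and 3.06 CPM against 1.34, 1.14, 2.58 and 4.59 CPM. Only Minnelide tumor 4 reached into the untreated range.

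Gpr137b gave 35.6, 57.0, 62.2 and 37.6 CPM untreated and 16.3, 15.4, 13.3 and 26.5 CPM with Minnelide, with no overlap. Shtn1 gave 75.8, 68.2, 67.1 and 44.4 CPM untreated and 14.45, 21.4, 14.3 and 32.9 CPM with Minnelide, also with no overlap. For Shtn1, unlike the other members, untreated tumor 1 was the highest of the 8. Nyap2 ranged from 6.79 CPM in untreated tumor 1 to 91.3 CPM in untreated tumor 3, and from 6.59 to 41.2 CPM in the Minnelide group. St18 ranged from 67.6 to 130 CPM untreated and from 28.8 to 71.5 CPM treated, with only Minnelide tumor 4 above the lowest untreated tumor.

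**Figure D1:**
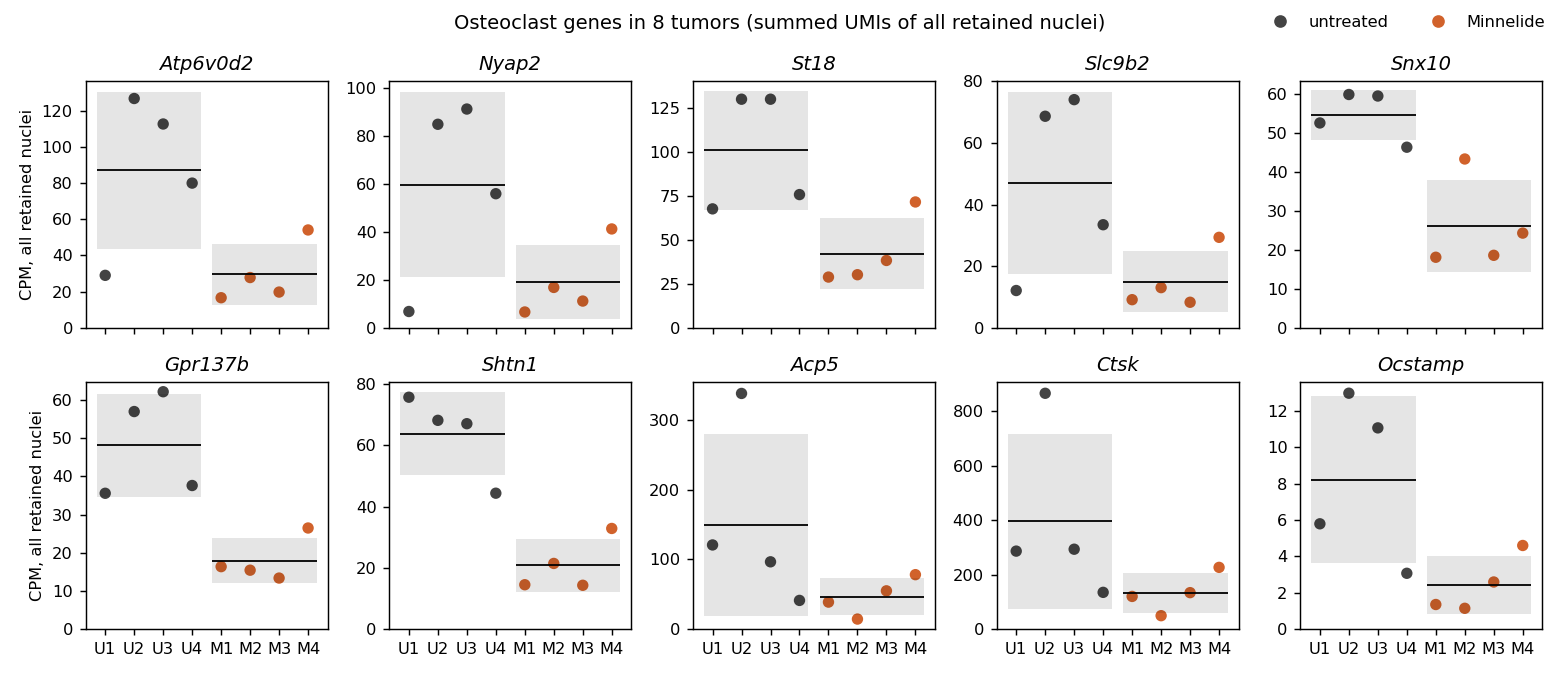
CPM of each member, from UMIs summed over all retained nuclei, in untreated tumors 1 to 4 (U1 to U4, grey) and Minnelide tumors 1 to 4 (M1 to M4, orange). Lines are group means, shaded bands are mean ± SD (n = 4); the groups are separate for Snx10, Gpr137b and Shtn1 only, and M4 is the highest treated tumor for every member but Snx10.

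Group means put these values on 1 scale. The summed members stood at 1014 ± 565 CPM in the untreated tumors and 351 ± 162 CPM in the Minnelide tumors (SD, n = 4 each), a log2 ratio of mean CPM of -1.53. Single members ran from -1.07 for Snx10 to -1.77 for Ocstamp, with a median of -1.60. The spread between the tumors was wide: Ctsk averaged 395 ± 323 CPM against 132 ± 73.1 CPM (SD, n = 4 each), with an untreated SD larger than the difference of the means. In all, 3 of 10 members had every Minnelide tumor below every untreated tumor, as did 6.94% of the 13811 genes tested. edgeR's quasi-likelihood fit over those genes called 0 of them (0%) at an adjusted p under 0.05. By unadjusted p 1377 were under 0.05, and DESeq2, run on 17544 genes without that filter on low counts, called 196 at an adjusted p under 0.05. Fewer osteoclast nuclei and less RNA per nucleus cannot be told apart in a sum over all nuclei. Without untreated tumors 2 and 3 the log2 ratio of the summed members was -0.82.

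The number of osteoclast-like nuclei was then counted. They made up 0.579% (52 of 8979), 2.98% (146 of 4897), 3.48% (228 of 6545) and 0.907% (94 of 10368) of the retained nuclei of untreated tumors 1 to 4. In Minnelide tumors 1 to 4 they made up 0.483% (45 of 9312), 0.557% (38 of 6820), 0.611% (52 of 8516) and 1.74% (78 of 4470). Exact binomial 95% intervals, which cover counting error only, ran from 2.52% to 3.50% and 3.05% to 3.96% in untreated tumors 2 and 3 and from 1.38% to 2.17% in Minnelide tumor 4. These 3 tumors stood apart from the other 5, whose intervals lay between 0.353% and 1.11%, and the groups overlapped. Group means were 1.99% ± 1.46 untreated and 0.848% ± 0.597 with Minnelide (SD, n = 4 each). The difference of the means, -1.14 percentage points, turned to 0.106 without untreated tumors 2 and 3. Set against macrophage-like nuclei, which share the lineage, osteoclast-like nuclei numbered 15.7, 55.5, 77.3 and 127 per 100 in the untreated tumors and 15.2, 19.4, 20.2 and 92.9 per 100 in the Minnelide tumors.

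Members differed in how far these few nuclei accounted for their UMIs. Osteoclast-like nuclei carried 0.453% to 3.63% of all UMIs of a tumor, but 45.6% to 84.4% of the Nyap2 UMIs (median 72.1% over 8 tumors). For Atp6v0d2 the share ran from 30.7% to 76.7%, and for Slc9b2 from 24.7% to 67.9%. At the other end, only 5.94% to 25.5% of Acp5 UMIs and 7.39% to 33.1% of Ctsk UMIs lay in osteoclast-like nuclei. Snx10 was also mostly outside, with 5.38% to 35.3%. For the summed members the share ran from 12.6% in Minnelide tumor 1 to 54.2% in untreated tumor 4. A sum over all nuclei thus reads mainly osteoclast-like nuclei for Nyap2 and mainly other nuclei for Acp5, Ctsk and Snx10.

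**Figure D2:**
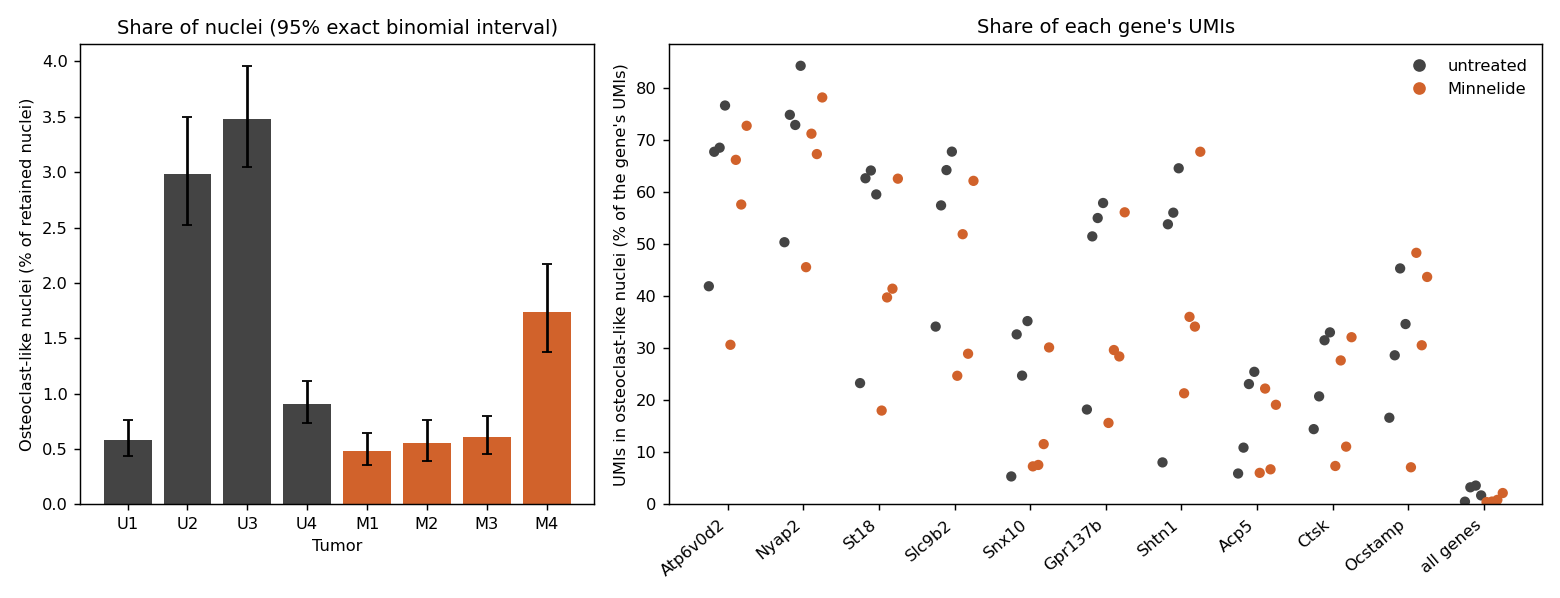
Left, osteoclast-like nuclei as a percent of retained nuclei per tumor, with exact binomial 95% intervals; U2, U3 and M4 stand above the others. Right, percent of each member's UMIs that lay in osteoclast-like nuclei, 1 point per tumor, beside the same percent for all genes; Nyap2 is highest (median 72.1%) and Acp5 lowest (median 15.0%).

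Within osteoclast-like nuclei the members were also lower on average with Minnelide, by less. The summed members measured 18992, 17542, 13282 and 17292 CPM in untreated tumors 1 to 4 and 7463, 15001, 7733 and 12289 CPM in Minnelide tumors 1 to 4. Means were 16777 ± 2447 and 10622 ± 3664 CPM (SD, n = 4 each), a log2 ratio of -0.66. Minnelide tumors 1 and 3 were low, whereas Minnelide tumor 2 lay inside the untreated range. All 10 members had a lower Minnelide mean, from -0.44 for Shtn1 to -0.96 for Ctsk on the log2 scale.

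Ctsk in these nuclei measured 7830, 5475, 2553 and 2571 CPM in untreated tumors 1 to 4 and 1950, 2465, 1702 and 3327 CPM in Minnelide tumors 1 to 4. Untreated tumors 1 and 2 set its mean apart, and the other pair of untreated tumors lay among the treated ones. Atp6v0d2 measured 2299, 2614, 2133 and 3546 CPM against 1127, 3370, 1309 and 1800 CPM, with Minnelide tumor 2 the second highest of the 8. St18 measured 2979, 2476, 2302 and 2607 CPM against 1148, 2197, 1824 and 2046 CPM and did not overlap. Gpr137b measured 1227, 894, 946 and 1260 CPM against 565, 838, 436 and 680 CPM, the other member without overlap. These 2 of 10 stand beside 4.85% of the 5673 genes tested in osteoclast-like nuclei. No gene passed there with edgeR (0 called, 0%), against 28 by DESeq2 over 14272 genes, and 808 of the 5673 genes had an unadjusted edgeR p under 0.05. Ocstamp rested on few UMIs, 6 to 35 per tumor in the Minnelide group and 17 to 128 in the untreated group.

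RNA of the tumor cells was also read in the same nuclei. The 8 tumor naming markers, among them the CIC target genes Etv1, Etv4 and Etv5, summed to 1614 to 5559 CPM in untreated osteoclast-like nuclei and to 13426, 4315, 11190 and 8493 CPM in Minnelide tumors 1 to 4. The log2 ratio of the group means of this sum was 1.23 in osteoclast-like nuclei. It was also above 0 in the other classes, at 0.88 in endothelial-, 0.81 in fibroblast-, 0.85 in myocyte-, 0.56 in pericyte-, 0.53 in macrophage- and 0.10 in tumor-like nuclei. The tumors with the most tumor marker RNA in osteoclast-like nuclei, Minnelide 1 and 3, were those with the least member RNA. The part of this RNA in the lower member CPM was not tested. The sum of the 10 osteoclast naming markers was lower too, at 5838 to 7398 CPM untreated and 3080 to 5634 CPM treated. Of these, Calcr, the calcitonin receptor, had like means (78.1 and 78.5 CPM) and was at 0 in Minnelide tumor 3. Per UMI of these markers the members gave 2.57, 2.61, 2.28 and 2.66 UMIs in untreated tumors 1 to 4 and 2.42, 2.66, 1.90 and 2.50 in Minnelide tumors 1 to 4, a mean of 2.53 ± 0.17 against 2.37 ± 0.33 (SD, n = 4 each). On that scale the log2 ratio was -0.09, within the spread between tumors.

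**Figure D3:**
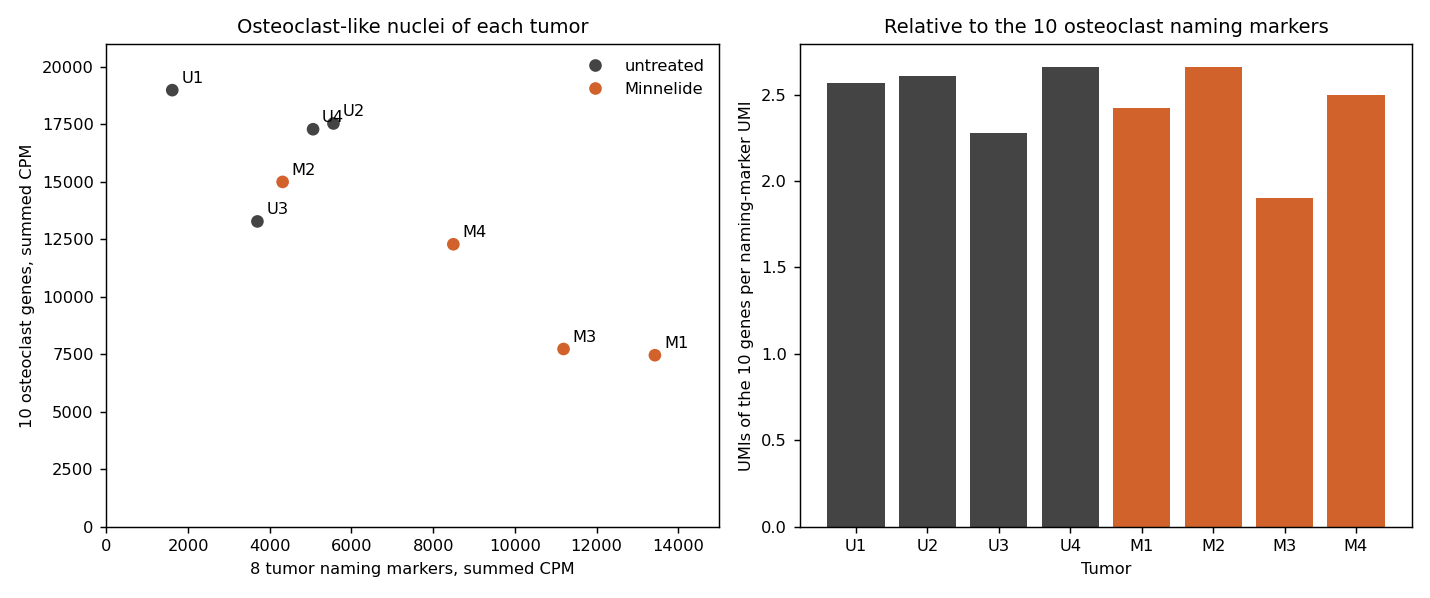
Osteoclast-like nuclei of each tumor (untreated grey, Minnelide orange). Left, summed CPM of the 10 members against summed CPM of the 8 tumor naming markers; M1 and M3 are lowest in members (7463 and 7733 CPM) and highest in tumor markers. Right, UMIs of the members per UMI of the 10 osteoclast naming markers, 1.90 to 2.66 in all 8 tumors.

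Macrophage-like nuclei (1799 in all, 74 to 332 per tumor) carried some members and not others. St18 stood at 374, 402, 390 and 463 CPM in untreated tumors 1 to 4 and at 434, 364, 321 and 793 CPM in Minnelide tumors 1 to 4, and was the 1 member whose Minnelide mean was not lower in this class (log2 ratio 0.23). Its macrophage-like level was 11.7 to 153 times the median of endothelial-, fibroblast- and myocyte-like nuclei of the same tumor. Gpr137b stood 5.53 to 16.9 times above that median and Shtn1 3.79 to 18.5 times, in 8 of 8 tumors each, as did Atp6v0d2 at 2.44 to 9.46 times and Snx10 at 1.92 to 5.07 times. Shtn1 ran from 106 to 364 CPM untreated and from 93.7 to 201 CPM treated, and the groups overlapped. Nyap2, at 0 to 13.7 CPM, and Slc9b2, at 2.96 to 30.5 CPM, were near the level of the non-myeloid classes. The summed members averaged -0.59 on the log2 scale, with 0 of 10 free of overlap, against 1.88% of the 8562 genes tested; edgeR called 0 of those genes (0%), as did DESeq2, and 419 had an unadjusted edgeR p under 0.05.

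In tumor-like nuclei (37644 in all) the members stood below the level in the osteoclast-like cluster. The class was unstable in untreated tumor 1, with 3370 nuclei here and 1724 in a finer clustering (resolution 2.0). It fell to 107 nuclei without doublet removal and to 17 in a coarser clustering (resolution 0.5). Every tumor-like value of untreated tumor 1 thus depends on the clustering. The summed members measured 481, 1239, 487 and 267 CPM in untreated tumors 1 to 4 and 185, 134, 235 and 303 CPM in Minnelide tumors 1 to 4. That was 2.96% ± 1.86 of the osteoclast-like CPM of the same tumor (SD over 8 tumors), from 0.893% in Minnelide tumor 2 to 7.07% in untreated tumor 2. With single nuclei that hold at least 3 osteoclast naming markers taken as osteoclast-like in place of the cluster, the percent was 39.7%. That set held 244 to 1484 nuclei per tumor, against 38 to 228 in the cluster. Tumor-like nuclei were not left out of it. Its nuclei were deep, with a median of 11173 UMIs in untreated tumor 1 against 3061 over all retained nuclei. The 39.7% is therefore no second estimate against the osteoclast-like cluster. Between the groups the log2 ratio of the summed members in tumor-like nuclei was -1.53, the same as over all nuclei. In retained nuclei outside the osteoclast-like class it was -1.47, which also belongs to the contrast that chose the members. Tumor-like nuclei without a UMI of any osteoclast naming marker gave -1.68. They were 381 of 3270 tumor-like nuclei in untreated tumor 2 and 5431 of 8374 in untreated tumor 4. Their median in untreated tumor 2 was 1915 UMIs, against 2884 for all its tumor-like nuclei, so this set is also shaped by depth.

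The tumor-like level was set against the other non-osteoclast classes to see whether tumor-like nuclei stood out. Ctsk in untreated tumor 2, the richest, measured 694 CPM in tumor-like, 725 in endothelial-like, 663 in fibroblast-like, 875 in myocyte-like and 852 in pericyte-like nuclei, against 5475 in osteoclast-like nuclei. Minnelide tumor 2, the poorest, gave 28.8, 42.1, 56.9, 36.4 and 51.6 CPM in the same 5 classes. Untreated tumor 1 was less even, at 169, 286, 324, 502 and 341 CPM. The ranges over these 5 classes did not overlap between the 3 tumors. The richest and the poorest tumor were picked for their Ctsk level, so this separation is no test. Ctsk ranges of other tumors did overlap, as in untreated tumor 4 (51.17 to 102.9 CPM) and Minnelide tumor 3 (87.03 to 130.8 CPM). Acp5 measured 304, 333, 290, 388 and 397 CPM in untreated tumor 2 and 9.94, 17.0, 10.9, 11.2 and 19.4 CPM in Minnelide tumor 2, and in untreated tumor 1 from 77.6 CPM in tumor-like to 253 CPM in myocyte-like nuclei. Tumor-like Ctsk was 0.520 to 1.76 times, and tumor-like Acp5 0.556 to 1.57 times, the median of endothelial-, fibroblast- and myocyte-like nuclei, above it in 3 of 8 tumors for each gene.

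The proportion of these transcripts was read as well. Osteoclast-like nuclei held 3.78 to 5.78 Ctsk UMIs per Acp5 UMI (median 4.27 over 8 tumors). Tumor-like nuclei held 2.17 to 2.96 (median 2.52), and the ratio was below that of osteoclast-like nuclei in 8 of 8 tumors. The medians of the other classes were close by, at 2.40 in macrophage-like, 2.49 in endothelial-like, 2.92 in fibroblast-like, 2.55 in myocyte-like and 2.25 in pericyte-like nuclei. In untreated tumor 2, where the counts were largest, the ratio was 2.29 in tumor-like, 2.18 in endothelial-like, 2.29 in fibroblast-like, 2.26 in myocyte-like, 2.15 in pericyte-like and 2.30 in macrophage-like nuclei against 4.88 in osteoclast-like nuclei. The other tumors were less even, and macrophage-like and endothelial-like nuclei of Minnelide tumor 1 (3.89 and 3.98) and fibroblast-like nuclei of Minnelide tumor 2 (5.23) lay above the osteoclast-like ratio of their tumor (3.78 and 4.28). Against Atp6v0d2 the ratio ran the other way. Osteoclast-like nuclei held 0.725 to 3.41 Ctsk UMIs per Atp6v0d2 UMI (median 1.52), and tumor-like nuclei 2.49 to 19.6 (median 9.85). Macrophage-like nuclei of Minnelide tumor 2 showed no step (0.727 against 0.732 in osteoclast-like nuclei). Untreated tumor 2, the richest in Ctsk, held 2.09 in osteoclast-like nuclei and 15.1 in tumor-like nuclei. Its endothelial-, fibroblast- and myocyte-like nuclei held 26.9, 28.8 and 29.2. The part of free osteoclast RNA in the tumor-like level was not tested apart from these values.

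**Figure D4:**
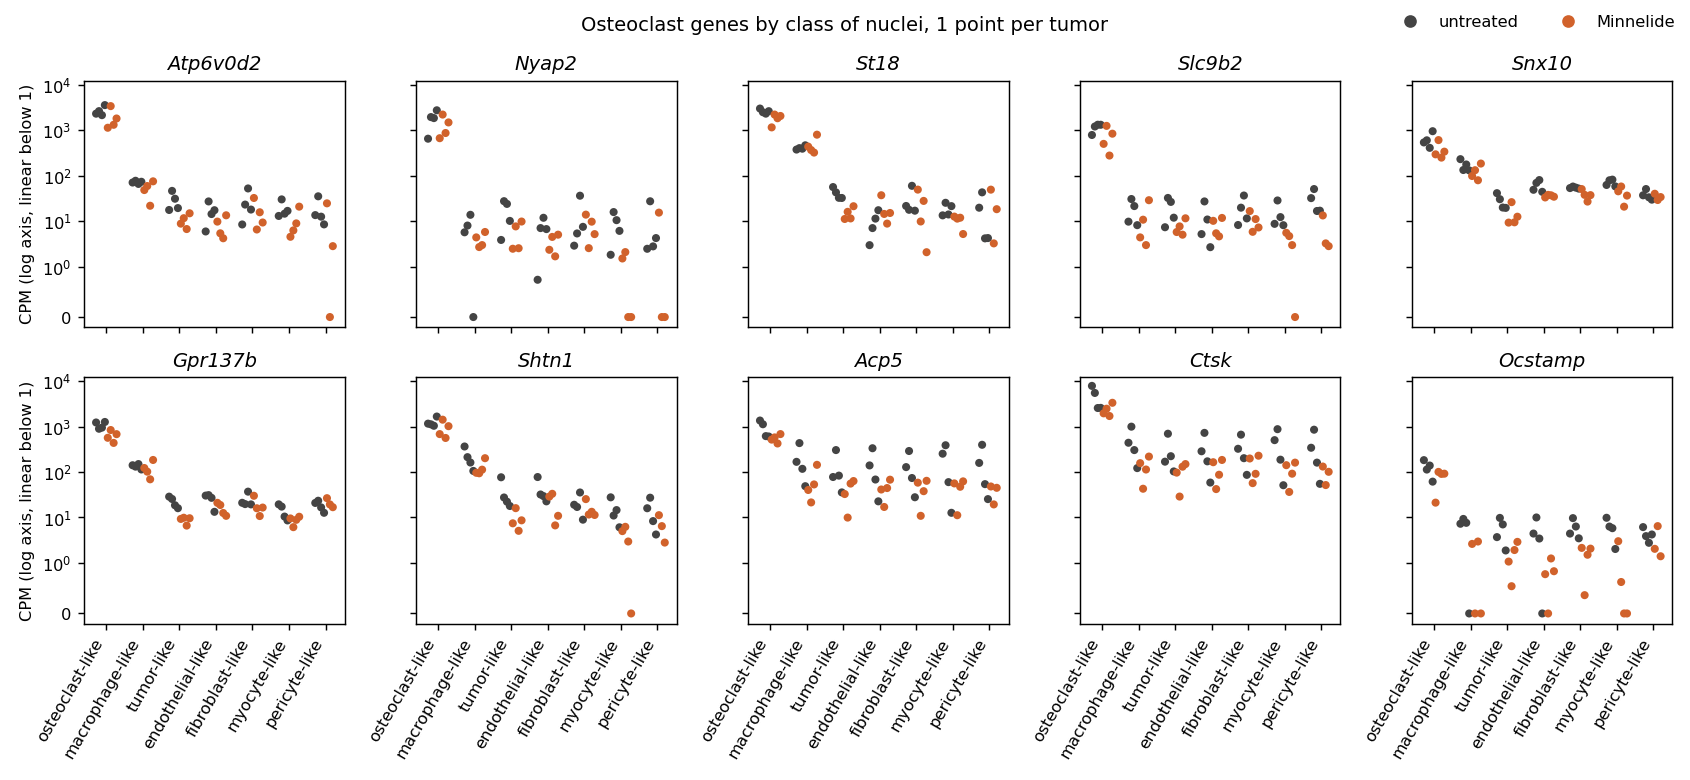
CPM of each member by class of nuclei (log axis, linear below 1), 1 point per tumor, untreated grey and Minnelide orange; pericyte-like nuclei of Minnelide tumor 4 are left out (under 20 nuclei). Acp5 and Ctsk are spread widely over tumors in every class, while St18, Gpr137b, Shtn1, Atp6v0d2 and Snx10 stand higher in macrophage-like nuclei than in endothelial-, fibroblast- and myocyte-like nuclei.

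The other members varied in how tumor-like nuclei stood against these classes. Gpr137b was at 0.442 to 1.37 times the same median, above it in 3 of 8 tumors, and Ocstamp at 0.4998 to 3.48 times, above it in 5 of 8. Nyap2 in tumor-like nuclei exceeded the median of endothelial-, fibroblast- and myocyte-like nuclei in 8 of 8 tumors, by 1.06 to 3.91 times, though it reached only 0.482% (median) of its osteoclast-like level. St18 exceeded it in 6 of 8 tumors. It measured 55.9, 42.7, 32.4 and 32.2 CPM in untreated tumor-like nuclei and 11.1, 15.9, 11.4 and 21.2 CPM in treated ones. Snx10 went the other way and was below that median in 8 of 8 tumors, at 0.205 to 0.773 times. Its endothelial-like and myocyte-like nuclei carried 33.1 to 79.6 CPM and 20.7 to 81.4 CPM. Shtn1 in tumor-like nuclei stood at 76.5 CPM in untreated tumor 1 and at 5.09 to 27.5 CPM in the other 7 tumors. The 9 macrophage naming markers summed to 824 CPM in tumor-like nuclei of untreated tumor 1 and to 194 to 392 CPM in those of the other tumors, none of them at 0, and their part in the Shtn1 and St18 levels of that tumor was not tested.

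Gene span was a feature the choice of members had not used. It is given as a property of the gene only, since the files do not settle whether introns added UMIs. The short genes stood high in tumor-like nuclei. Their tumor-like level was 7.81% (median over 8 tumors) of the osteoclast-like level for Acp5 (11.3 kb), 4.73% for Ctsk (10.6 kb) and 3.12% for Ocstamp (6.66 kb). The long genes stood low, with 0.482% for Nyap2 (291 kb), 1.14% for St18 (374 kb) and 1.11% for Shtn1 (103 kb). Atp6v0d2 (45.8 kb), Slc9b2 (37.7 kb) and Gpr137b (37.4 kb) lay at 0.770%, 1.26% and 1.58%. Snx10 (84.2 kb), at 4.05%, departed from this order. Across the 10 genes Pearson's r between log10 span and log10 tumor-like percent was -0.71 and Spearman's rho -0.70. This is a description over genes that share tumors, nuclei and depth and are not independent replicates. The order did not hold in macrophage-like nuclei. There the medians were 32.6% for Snx10 and 17.3% each for St18 and Shtn1, against 12.5% for Acp5, 6.62% for Ctsk and 3.62% for Ocstamp.

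**Figure D5:**
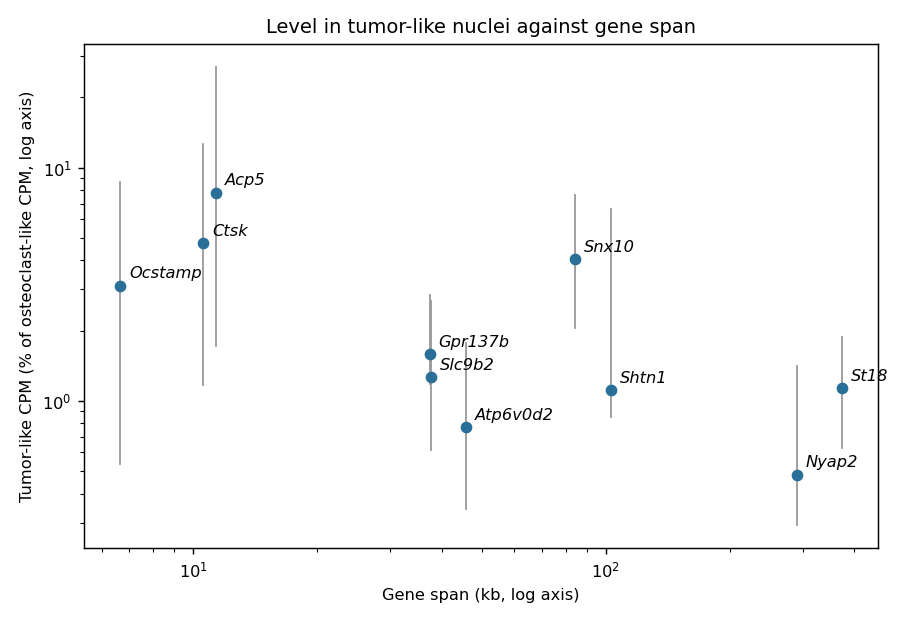
Level of each member in tumor-like nuclei as a percent of its osteoclast-like CPM in the same tumor (point, median of 8 tumors; line, lowest to highest; log axis) against gene span in kb (log axis). Acp5, Ctsk and Ocstamp, the 3 shortest genes, lie between 3.12% and 7.81%.

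The genes whose level was most like that of the members were found over 55 units of tumor and class with at least 20 nuclei. By Pearson's r with the mean log2(CPM + 10) of the members they were Slc37a2 (r = 0.98), Dcstamp (0.98), Clec12a (0.97), Atp6v1b2 (0.97), Atp6v1c1 (0.96), Ccr1 (0.96), Tcirg1 (0.96), Clcn7 (0.96), Ptpn18 (0.95) and Gnptab (0.95). Dcstamp, like Ocstamp, acts in cell fusion, and it is also 1 of the markers that named the osteoclast-like cluster. Atp6v1b2, Atp6v1c1 and Tcirg1 are V-ATPase subunits. Among the members themselves, r with the mean of the other 9 was highest for Atp6v0d2 (0.98) and lowest for Acp5 (0.81) and Ctsk (0.87). The units share tumors and nuclei, so no p is given.

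Companion genes that were no members were read beside them. The lists here and in the following paragraphs were chosen with earlier results of these data known. Many companions are carried by the same osteoclast-like nuclei as the members. Their counts and p-values are therefore a description and no separate test of a lower osteoclast program. Of 14 osteoclast regulators, 13 had a fitted log2 fold change below 0 over all nuclei (median -0.85), as did 10 of 14 osteoclast effectors (median -0.26), against 6802 of 13811 genes and a median of 0.01 overall. None of these 28 genes was called by edgeR, and 8 had an unadjusted edgeR p under 0.05, against 1377 of the 13811 genes. DESeq2 called 3 of the 28, against 176 of those 13811. Those 3 were the M-CSF receptor Csf1r, with a log2 fold change of -1.20 ± 0.27 (SE; edgeR adjusted p = 0.464, DESeq2 adjusted p = 0.0162), the lineage factor Spi1 at -1.49 ± 0.34 (0.464 and 0.0113) and the RANKL receptor Tnfrsf11a at -1.18 ± 0.28 (0.464 and 0.0276). Csf1r measured 38.6, 49.4, 36.1 and 22.2 CPM in untreated tumors 1 to 4 and 12.3, 11.3, 14.8 and 19.1 CPM in Minnelide tumors 1 to 4, with no overlap. Among the effectors the smallest p-values belonged to Plekhm1 (-0.51 ± 0.15), which acts in lysosome trafficking, the V-ATPase subunit Tcirg1 (-0.81 ± 0.26) and Dcstamp (-1.92 ± 0.73). In osteoclast-like nuclei 12 of 13 regulators and 13 of 13 effectors tested had an estimate below 0 (medians -0.50 and -0.54, against -0.01 over all 5673 genes), again with 0 called; several of them named that cluster.

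Most V-ATPase subunits other than Atp6v0d2 are used by many cell types. Of 18 listed, the rarely detected Atp6v1b1 and Atp6v1c2 did not pass the filter on low counts. Of the 16 tested over all nuclei, 14 had an estimate below 0 with a median of -0.27, and edgeR called 0. The leading one was Atp6v1b2, an abundant B subunit, at -0.73 ± 0.14 (SE; edgeR adjusted p = 0.464, DESeq2 adjusted p = 0.00555). It measured 103, 120, 102 and 109 CPM untreated and 56.0, 59.0, 52.8 and 69.6 CPM treated, a closer agreement between tumors than any member gave. Next came Atp6v1a (-0.30 ± 0.13) and Atp6v1d (-0.27 ± 0.12). In osteoclast-like nuclei the median of 15 subunits was -0.41.

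The signals that form osteoclasts were measured in other cells of the tumor. Csf1 measured 75.6, 53.8, 60.05 and 35.4 CPM over all nuclei of untreated tumors 1 to 4 and 18.8, 18.01, 21.2 and 20.5 CPM in Minnelide tumors 1 to 4. The groups did not overlap, and the log2 fold change was -1.36 ± 0.20 (SE; edgeR adjusted p = 0.398, DESeq2 adjusted p = 5.74e-06). By class, Csf1 was highest in fibroblast-like nuclei, at 124 ± 42.0 CPM untreated and 52.8 ± 27.8 CPM treated (SD, n = 4 each), and was also lower in treated tumor-like nuclei (44.0 ± 20.9 against 16.8 ± 1.95 CPM, SD, n = 4 each). Tnfsf11, which encodes RANKL, was at -1.44 ± 0.41 (SE; edgeR adjusted p = 0.464, DESeq2 adjusted p = 0.0746) over all nuclei. Its fibroblast-like level was 154, 150, 114 and 175 CPM in untreated tumors and 38.0, 76.8, 29.99 and 178 CPM in Minnelide tumors, with Minnelide tumor 4 above every untreated tumor and untreated tumor 3 the lowest of its group. The alternative M-CSF receptor ligand Il34 (-1.27 ± 0.41) and the RANKL decoy Tnfrsf11b (-1.31 ± 0.55) had estimates below 0 as well, neither called by edgeR or DESeq2, and the decoy rested on 0.527 to 5.63 CPM.

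Markers of neighboring cells moved with the groups over all nuclei. All 10 macrophage genes had an estimate below 0 (median -1.13, 0 called; Ptprc -1.25 ± 0.39, C1qc -1.69 ± 0.80 and C1qa -1.55 ± 0.74 had the smallest p-values), and so did 6 of 7 osteoblast and bone matrix genes (median -1.83, 0 called; Sp7 -2.03 ± 0.63, Dmp1 -4.11 ± 1.28 and Alpl -1.83 ± 0.62 had the smallest p-values). Of these named genes, C1qc, C1qa and Dmp1 each rested on 1 tumor. Without untreated tumor 1 the untreated mean of C1qc went from 19.6 to 6.40 CPM and that of C1qa from 26.2 to 11 CPM, against 5.10 and 7.60 CPM treated. Without untreated tumor 2 that of Dmp1 went from 4.40 to 0.777 CPM, against 0.218 CPM treated. Other genes of the lists also leaned on 1 tumor. Without untreated tumor 1 the untreated means of F13a1, Cd163 and Mertk were 30.8, 2.07 and 98.9 CPM, below 35.6, 2.48 and 102 CPM treated. Without untreated tumor 2 that of Col1a1 went from 1598 to 988 CPM, against 985 CPM treated. Without their highest untreated tumor, Ptprc (59.6 against 32.5 CPM), Sp7 (4.64 against 1.44) and Alpl (45.0 against 15.0) stayed above the treated mean. The part of these neighboring cells in the lower level of the members was not tested.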

How the data were processed

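Nuclei were isolated from tumors and libraries made with a 10x Genomics 3′ kit with on-chip multiplexing. Per the labels, the authors used bcl2fastq 2.20 and Cell Ranger 7.0.1 with mm39, intronic reads included; the matrix headers name 9.0.1. The deposited values are raw UMI counts per gene and nucleus. Each of the 8 matrices (4 per group) was taken as a tumor and as the replicate, so p-values measure the spread between these tumors. Words on response in the deposited names are not in the labels and were not used.

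A mixture model of mitochondrial share on genes detected removed nuclei assigned to the compromised component at 0.75 or more, together with those under 200 genes; the nuclei with the highest Scrublet doublet scores followed (0.8% per 1000 nuclei). Clustering (scanpy 1.11.5, 2000 variable genes without members, markers, fusion targets, mitochondrial and sex-linked genes, 30 components, 40 neighbors, Leiden resolution 1.0, no integration) was followed by naming: a marker was raised at 1.5-fold over the 10th percentile of the tumor's clusters after adding 20 CPM and in 5% of nuclei, and 3 were needed. The step that takes leading genes within a tumor was set after the clusters and class counts had been seen and before any test. No annotation by the authors was used.

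UMIs were summed per tumor and class (at least 20 nuclei) and scaled to CPM. Genes were tested with edgeR 4.0.16 (TMM, filterByExpr, glmQLFTest, Benjamini-Hochberg adjustment over all genes tested), tested on simulated data beforehand; DESeq2 1.42.0 was an alternative. SE is the log2 fold change divided by the root of F. The members and lists were chosen with earlier results of these data known. All members were named, and of each list the 3 genes with the smallest p where none was called; further companion genes were named with their values in view.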

Additional observations from a re-analysis of the deposited data

Results flagged for a closer look

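Within groups of 4 tumors, Dixon's test was applied to each member and their sum in all retained, osteoclast-like, macrophage-like and tumor-like nuclei and to the osteoclast-like share. Of 90 groups, 3 had a tumor far from the others, and chance flags about 1 in 20 groups. Ocstamp in osteoclast-like nuclei of Minnelide tumor 1 was at 21.2 CPM, from 6 UMIs, against 90.9 to 101 CPM in the other Minnelide tumors. Shtn1 in tumor-like nuclei of untreated tumor 1, a class that varied with the clustering, was at 76.5 CPM. It was at 17.9 to 27.5 CPM in the other untreated tumors. Osteoclast-like nuclei made up 1.74% of Minnelide tumor 4, against 0.483% to 0.611% in the other Minnelide tumors.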

How the results depend on the processing

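No paired analysis was possible because the labels give the tumors no replicate numbers. Of 117 alternatives over 9 results, 105 stayed within the spread between tumors or at the same count, 11 went beyond it in the same direction or changed a count, and 1 turned sign. Leaving out 1 tumor at a time, the share difference ran from -1.61 to -0.640 percentage points, the log2 ratio of the summed members from -1.90 to -1.09 over all nuclei, from -0.87 to -0.52 in osteoclast-like nuclei and from -1.78 to -0.94 in tumor-like nuclei, the tumor-like percent from 2.37 to 3.26, and the edgeR calls from 0 to 1 over all nuclei (1 without Minnelide tumor 2), from 0 to 1 in osteoclast-like nuclei (1 without untreated tumor 1) and at 0 for macrophage-like nuclei and companion genes. Without untreated tumors 2 and 3, left out after the data were seen, the share difference was 0.106 and the all-nuclei log2 ratio -0.82. Single nuclei with at least 3 osteoclast markers, 244 to 1484 per tumor, were also taken as osteoclast-like, and tumor-like nuclei were not left out of them. They gave a share difference of -4.64, a log2 ratio of -1.63 and a tumor-like percent of 39.7. Relative to the osteoclast naming markers, also chosen after the data were seen, the osteoclast-like log2 ratio was -0.09. DESeq2 called 196 genes over all nuclei (23 higher, 173 lower), 28 in osteoclast-like nuclei and 3 companion genes, and edgeR without a low-count filter called 1 gene in osteoclast-like nuclei; the cause was not tested. At resolution 0.5 untreated tumor 1 had 17 tumor-like nuclei and was left out of the tumor-like values. Ocstamp and the small classes are limited by depth.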
